A study of Mus musculus with 8 samples.

Results

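A set of 8 genes that mark or shape position along the dorsal-ventral axis of the mouse olfactory epithelium was followed through polysome fractions. They were taken by symbol from the 21765 genes of the deposited polysome table, and all 8 were found and passed the filter on low values. The ventral set held the 3 nuclear factor I (NFI) transcription factors Nfia, Nfib and Nfix and the cell adhesion gene Ncam2, and the dorsal set held Nqo1, Acsm4, Acss2 and Msx1. Polysomes are mRNAs loaded with ribosomes, and the study compared wild-type (WT) mice with a conditional knockout (cKO) of Mex3a, which encodes an RNA-binding protein.

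Whole main olfactory epithelium was treated with 100 µg/mL cycloheximide, which holds ribosomes on mRNA, and lysates were separated on gradients into about 42 fractions. Fractions 27 to 34 were pooled as early polysomes and fractions 35 to 42 as late polysomes. WT mice were Mex3a flox/flox or Mex3a flox/+ with no Cre, and cKO mice were Mex3a flox/flox with Cre, so floxed alleles were present in both genotypes. Each genotype gave 2 lysates and each lysate 1 early and 1 late library, which makes 8 libraries in 4 groups of 2. The age and strain of the mice, and whether a lysate pooled animals, are not given in the sources used here. The title of WT early replicate 2 names it WT while its genotype tag is that of the cKO mice, and it was analysed by its title. The p-values measure the spread between these libraries, since no label says that the lysates came from separate animals.

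The olfactory epithelium is divided into zones, and a neuron's position from dorsal to ventral limits which odorant receptors it can express. NFI proteins bind DNA as dimers and act in the development of brain and epithelia, and in olfactory neuron precursors they are known for their part in ventral zonal identity. Nqo1, a quinone reductase, marks neurons of the dorsal zone, and Ncam2 marks the axons of the more ventral neurons. On a gradient, mRNAs that carry more ribosomes sediment further, so longer coding sequences are usually found in heavier polysomes.

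Values are transcripts per 1000000 (TPM) divided by a scaling factor per library, which lay between 0.931 and 1.06. The whole reads behind the values, inferred from the steps between TPM values, came to 7776792 in the shallowest library and 12771079 in the deepest. Mex3a, the targeted gene, stood at 98.8 and 119 scaled TPM in WT and 14.6 and 21.3 in cKO in early polysomes, and at 88.9 and 90.03 in WT and 11.0 and 13.2 in cKO in late ones. The 119 belongs to the library with the conflicting tag, and every cKO library lay below every WT library. Mature neuron markers of the olfactory epithelium were present, 9 of 9, with a summed level of 7158 to 12968 scaled TPM over the libraries. Markers of surrounding tissue were also high: the 6 mesenchyme and fibroblast genes summed to 8183 to 18011 scaled TPM. That sum is mostly Col1a1 and Col1a2, with means of 8602 and 4418 deposited TPM. Col3a1 had 246, Dcn 273, Lum 215 and Pdgfra 36.2.

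The genes lie on 6 chromosomes of the mouse build GRCm38, in the GENCODE annotation. Nfib (chromosome 4, 82290173 to 82705750, minus strand) and Nfia (chromosome 4, 97772734 to 98118874, plus strand) share a chromosome, as do Nfix (chromosome 8, 84699876 to 84800344, minus strand) and Nqo1 (chromosome 8, 107388225 to 107403206, minus strand). Acsm4 lies on chromosome 7 (119690026 to 119714565, plus strand) and Acss2 on chromosome 2 (155517948 to 155585724, plus strand). Msx1 lies on chromosome 5 (37820485 to 37824583, minus strand) and Ncam2 on chromosome 16 (81200697 to 81626828, plus strand).

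The promoters of the dorsal and ventral genes were searched for NFI binding motifs, because the factors and the zonal genes are set side by side here. RefSeq promoters (GRCm38.p6, 250 bases before to 50 after the start site) were on hand for 7 of the 8 genes, all but Nfib, with 10 promoters in all. The NFI palindrome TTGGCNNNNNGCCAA, searched on both strands, was in 0 of these 10 promoters and in 0.0365% of all 32851. The half-site TTGGCA, part of which overlaps the palindrome, was in 2 of the 10, those of Nqo1 and Acsm4, and in 14.1% of all promoters. The 30 bases around each match are shown with the half-site in capitals, read along the strand of the gene. That of Nqo1 (chr8:107403319-107403348, minus strand) reads as the reverse complement of the half-site, and that of Acsm4 (chr7:119689882-119689911, plus strand) reads as the half-site itself.
Nqo1: actgcttctcccTGCCAAaaacttggtatc
Acsm4: tttagtttttctTTGGCActgagtcagggg
The match begins 131 bases before the start site in Nqo1 and 132 bases before it in Acsm4. The antioxidant response core TGACNNNGC, bound by the factors that induce Nqo1 in many tissues, was in the windows of Acss2 and Msx1 and in 12.4% of all promoters. These letters were not in the window of Nqo1. A match is a run of letters and no measured site.

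**Figure D1:**
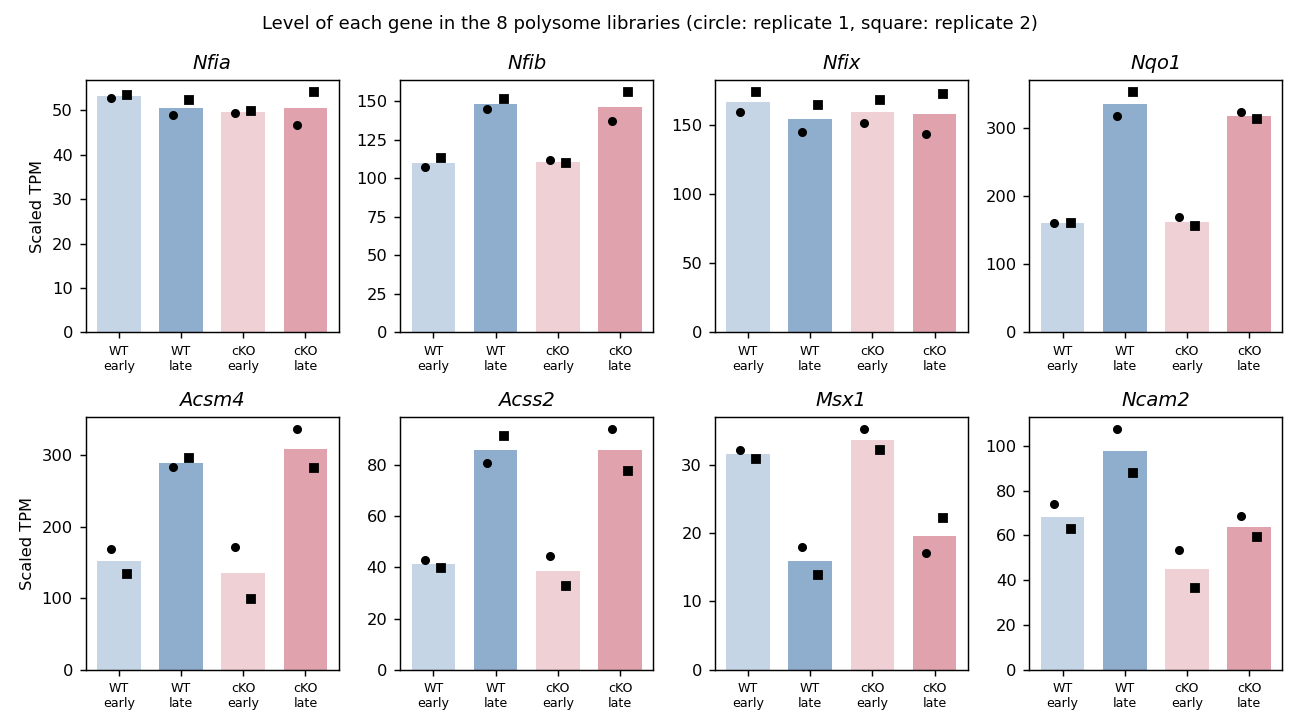
Scaled TPM of the 8 genes in early and late polysomes of each genotype. Bars are group means of 2 libraries, and the circle and square are replicates 1 and 2. Nfib, Nqo1, Acsm4, Acss2 and Ncam2 are higher in late polysomes, Msx1 is lower there, and Ncam2 is lower in the cKO libraries of both fractions.

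The NFI genes were well expressed, and 1 of them differed between fractions. Nfix, the most abundant per length, stood at 159 and 174 scaled TPM in WT and 151 and 168 in cKO in early polysomes, and at 145 and 164 in WT and 143 and 172 in cKO in late ones. All 4 groups overlapped. Nfib stood at 107 and 113 in WT and 112 and 109.6 in cKO in early polysomes, and at 145 and 151 in WT and 137 and 156 in cKO in late ones. Every late library of Nfib lay above every early one, while the genotypes overlapped in both fractions. Nfia, the least abundant of the family, stood at 52.9 and 53.5 in WT and 49.3 and 49.9 in cKO in early polysomes, and at 48.9 and 52.3 in WT and 46.7 and 54.2 in cKO in late ones. Its 8 libraries spanned a narrow range with no order by fraction. Nfic, the remaining family member and not one of the 8 genes, had group means of 98.4 ± 4.91 in WT and 101 ± 5.84 in cKO early polysomes and of 90.6 ± 8.13 in WT and 105 ± 16.3 in cKO late polysomes (SD, n = 2).

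Expressed as a share of the summed scaled TPM of the 4 NFI genes, Nfix held 36.5% ± 2.21, Nfib 29.3% ± 3.67, Nfic 22.6% ± 1.47 and Nfia 11.6% ± 0.622 (SD, n = 8 libraries). By inferred reads, which also count transcript length, Nfib came first at 35.03%, ahead of Nfix at 32.05%, and Nfia at 14.5% stayed behind Nfic at 18.4%. That order held in the late libraries, at 37.3% to 40.2% for Nfib against 29.6% to 30.8% for Nfix. In early libraries Nfix led Nfib in 3 of 4, and in cKO early replicate 1 they stood at 32.6% and 32.9%. Nfib took 25.8% and 25.6% of the family in WT early and 34.2% and 32.6% in WT late. In cKO its share was 25.3% to 27.4% in early and 31.2% to 32.5% in late polysomes. The late libraries of both genotypes thus held a larger Nfib share than the early ones, and the share of Nfix was smaller, 34.02% to 35.4% late against 36.9% to 39.3% early. The summed level of all 4 genes ran from 409 to 443 scaled TPM in early and from 421 to 499 in late libraries.

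**Figure D2:**
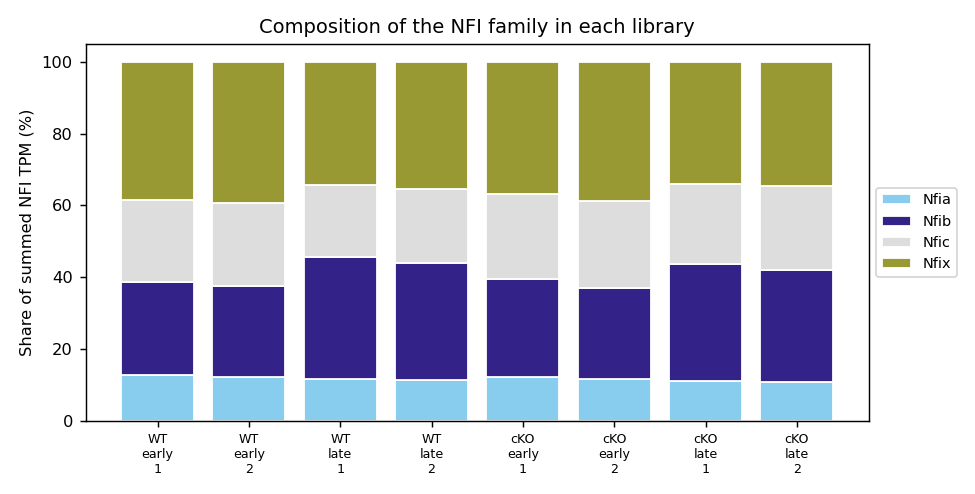
Share in percent of Nfia, Nfib, Nfic and Nfix in their summed scaled TPM, 1 bar per library. The Nfib segment is wider in all 4 late libraries (31.2% to 34.2%) than in the 4 early ones (25.3% to 27.4%).

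Late and early polysomes were compared to ask how the mRNAs of these genes were spread along the gradient. Averaged over genotypes, 6 of the 8 genes differed (limma, adjusted p under 0.05), 5 higher in late polysomes and 1 lower. This fraction contrast moved most of the transcriptome, with 68.9% of 16097 tested genes called, 34.3% higher and 34.6% lower, so a call by itself sets no gene apart. The share of all genes whose early and late libraries did not overlap was not counted. Such separation, where given for a gene, is thus a description only. The median over the 8 genes was 0.46 on the log2 scale, against -0.01 over all genes tested. Fold changes are on the scale of log2(scaled TPM + 1) and understate those of low genes.

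Among the NFI factors Nfib was higher in late polysomes by 0.41 ± 0.069 (log2, SE; adjusted p = 0.0008), which is 1.33-fold. The rise was 0.43 and 0.41 in the WT lysates and 0.29 and 0.51 in the cKO lysates. Nfia changed by -0.03 (95% interval -0.19 to 0.14), Nfix by -0.07 (-0.27 to 0.14) and Nfic by -0.03 (-0.24 to 0.17), none called, and without scaling these 3 values lay above 0 (0.09, 0.05 and 0.08). Nfib exceeded Nfia by 0.44 ± 0.080, Nfix by 0.48 ± 0.084 and Nfic by 0.44 ± 0.12 in its late-minus-early change (SD, n = 4 lysates), and it did so in 4 of 4 lysates each time. The two-sided exact sign-flip permutation test gave p = 0.125 for each, the smallest that 4 lysates allow, also after adjustment over 13 gene pairs.

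The scaled TPM of the 3 dorsal metabolic genes was about doubled in late polysomes. Nqo1 stood at 160.1 and 160.2 scaled TPM in WT and 169 and 155 in cKO in early polysomes, and at 318 and 352 in WT and 323 and 312 in cKO in late ones. Early and late libraries of Nqo1 were far apart in both genotypes, and its change was 1.01 ± 0.069 (log2, SE), or 2.02-fold. Acsm4, a medium-chain acyl-CoA synthetase, stood at 169 and 134 in WT and 172 and 99.0 in cKO in early polysomes, and at 283.5 and 295 in WT and 336 and 281 in cKO in late ones. The lowest late library of Acsm4 was well above its highest early one, and the change was 1.09 ± 0.17 (adjusted p = 0.000477). Acss2, which makes acetyl-CoA from acetate, stood at 42.7 and 39.9 in WT and 44.6 and 32.6 in cKO in early polysomes, and at 81.0 and 91.3 in WT and 94.1 and 77.9 in cKO in late ones. Its change was 1.09 ± 0.11 (adjusted p = 6.11e-05).

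Msx1, a homeobox transcription factor, went the other way. It stood at 32.2 and 30.9 scaled TPM in WT and 35.2 and 32.2 in cKO in early polysomes, and at 18.0 and 13.9 in WT and 17.1 and 22.2 in cKO in late ones. All early libraries lay above all late ones, and the change was -0.86 ± 0.11 (log2, SE; limma adjusted p = 0.000216). Relative to other mRNAs, its level in late polysomes was thus 55.2% of that in early ones. Msx1 was the lowest of the 8 genes, with 121 to 308 inferred reads per library. The 3 dorsal enzymes exceeded it by 1.87 to 1.95 in their late-minus-early change, in 4 of 4 lysates each (exact sign-flip p = 0.125). The 4 cartilage and bone markers summed to 1440 to 1747 scaled TPM in early and 2813 to 3566 in late libraries. The sum is mostly Ibsp, which was 1.30 higher in late polysomes, while Bglap was lower at -1.99, and Acan at -0.39 and Col2a1 at -0.27 were not called. Their part in the values of Msx1 was not tested.

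Ncam2 stood at 73.9 and 62.8 scaled TPM in WT and 53.5 and 36.5 in cKO in early polysomes, and at 107 and 87.8 in WT and 68.5 and 59.1 in cKO in late ones. Within each genotype both late libraries were above both early ones, while the late cKO libraries overlapped the early WT ones. Averaged over genotypes it was 0.51 ± 0.13 higher in late polysomes (log2, SE; adjusted p = 0.00827). Nqo1, Acss2 and Acsm4 exceeded its change by 0.50 ± 0.15, 0.58 ± 0.16 and 0.58 ± 0.26 (SD, n = 4 lysates), in the same direction in every lysate (exact sign-flip p = 0.125).

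Taken by genotype, the calls were the same 6 genes in WT, where 54.8% of all genes were called, and in cKO, where 58.1% were. Ncam2 was close to the threshold in each, at adjusted p = 0.0484 in WT and 0.0429 in cKO, and lost its call in 9 and 10 of 18 other settings. Leaving out 1 library in turn gave 0.36 to 0.65 in WT, with the call lost for each library but the cKO early ones (adjusted p up to 0.240). In cKO it gave 0.25, without cKO early replicate 2 (adjusted p = 0.283), to 0.78, with the call lost for each library but cKO early replicate 1. Acsm4 lost its call in WT without WT early replicate 2 or WT late replicate 2, at adjusted p = 0.0757 and 0.0539. No gene of the 8 was called for the interaction of genotype and fraction (limma, with 0 also at an unadjusted p under 0.05 and 0 by voom), against 0.00621% of all genes called and 2.85% at the unadjusted p.

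Coding length gave a scale for these changes. Over 14672 genes with an annotated coding sequence, sorted by coding length into 10 classes of nearly equal size, the median late-minus-early change climbed from -1.12 in the class with the shortest coding sequences to 0.50 in that with the longest. Nqo1, with a coding sequence of 822 nucleotides, fell in a class whose median was -0.26, and its change exceeded that of 98.6% of the genes there. Msx1, with 909 nucleotides, was in the same class and exceeded only 9.48% of it. These 2 dorsal genes of nearly equal coding length thus stood at opposite ends of their length class.

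Acsm4 (1740 nucleotides) exceeded 95.3% and Acss2 (2103 nucleotides) 95.6% of the genes of like coding length. Ncam2 (2181 nucleotides) exceeded 60.5% of the same class as Acss2, and Nfib (1710 nucleotides) 59.7% of the same class as Acsm4. Nfia (1527 nucleotides) and Nfix (1482 nucleotides) exceeded 36.2% and 33.7%. The changes of Nfib and Ncam2 were thus within the middle range of their length classes, as were those of Nfia and Nfix. A rise like that of the dorsal enzymes was also found among 6 markers of sustentacular cells, not matched for length. Of these, 5 were higher and 1 lower in late polysomes (limma, median 1.11), against 34.3% and 34.6% of all genes. This was the highest median among the marker lists, and the direction was not particular to it. Horizontal basal cell markers had a median of 0.86 and endothelial markers 0.70. Only immature neuron markers (-0.25) and cartilage and bone markers (-0.33) had medians below 0.

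The untranslated ends differed between the sets. The 3′ untranslated regions measured 7639 nucleotides in Nfia, 6512 in Nfib and 3954 in Nfix, against a median of 1028 over all genes. Those of the dorsal genes were 597 in Nqo1, 224 in Acsm4, 669 in Acss2 and 776 in Msx1, all under that median, and that of Ncam2 was 2495. Upstream of the start codon, the annotated leaders held 3 ATG triplets in Nfib, 2 each in Nfia and Acss2 and 1 in Msx1, and 0 in Nfix, Nqo1, Acsm4 and Ncam2.

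**Figure D3:**
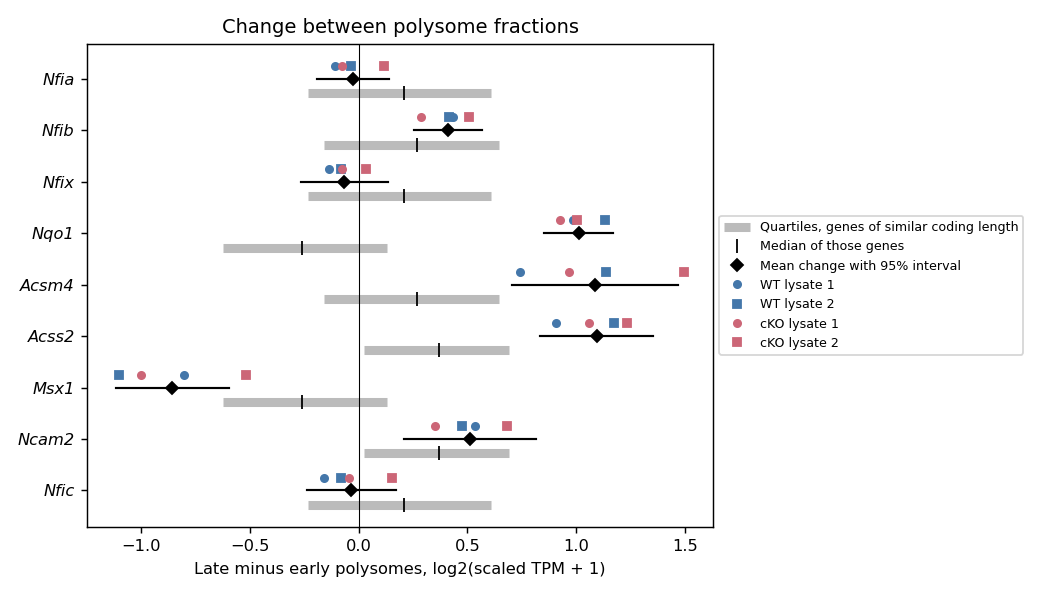
Late-minus-early change in log2(scaled TPM + 1) of the 8 genes and Nfic. Points are the 4 lysates, diamonds the mean with its 95% interval, and grey bars the quartiles of genes of similar coding length. Nqo1, Acsm4 and Acss2 lie to the right of their grey bars, Msx1 lies to the left of its own, and the NFI genes and Ncam2 lie within theirs.

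WT and cKO were compared to ask whether loss of Mex3a went with altered polysome levels of the zonal genes. By limma, 0 of the 8 genes were called in early polysomes, late polysomes or the lysate means, against 0.0435%, 0.0124% and 0.00621% of all genes, and voom on inferred reads also called 0. At an unadjusted p under 0.05 each of the 3 comparisons held 1 of the 8, Ncam2, against 6.64%, 9.36% and 11.3% of all genes. The lysate means, which count each lysate once, are the comparison used for the values that follow.

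The NFI factors were close to level between genotypes on this scale. Nfib differed by -0.004 (log2, cKO minus WT; 95% interval -0.17 to 0.16), Nfix by -0.02 (-0.26 to 0.22), Nfia by -0.05 (-0.24 to 0.13) and Nfic by 0.12 (-0.11 to 0.36). The dorsal enzymes differed by -0.03 for Nqo1 (-0.20 to 0.15), -0.06 for Acss2 (-0.36 to 0.24) and -0.06 for Acsm4 (-0.47 to 0.36). Acsm4 had the widest of these intervals, and its cKO early libraries, at 172 and 99.0 scaled TPM, lay far apart. Msx1 differed by 0.19 (-0.06 to 0.44), with the highest late value in cKO late replicate 2, and leaving out 1 lysate gave 0.087, without WT replicate 2, to 0.29, without WT replicate 1.

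Ncam2 had the largest difference of the 8, and it did not pass the adjusted threshold. It was lower in cKO by 0.61 ± 0.15 on lysate means (log2 change -0.61, SE; unadjusted p = 0.0064, adjusted p = 0.359), so cKO held 65.6% of the WT level (95% interval of the ratio 0.511 to 0.843). The change was -0.61 in early (adjusted p = 0.672) and -0.60 in late polysomes (adjusted p = 0.415), and the interaction was 0.01. Without cKO early replicate 2 the early value was -0.34, and leaving out other single libraries gave values down to -0.88. Both cKO libraries lay below both WT libraries in each fraction, a pattern that 6.67% of all genes shared. A change this low or lower was found for 1.34% of all genes. Leaving out 1 lysate moved the value between -0.79 and -0.42.

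Set against the dorsal genes, Ncam2 kept its lower level in cKO. The ratio reuses the same Ncam2 values and is no second observation. The log2 ratio of Ncam2 to the mean of Nqo1, Acsm4, Acss2 and Msx1 was -0.05 and -0.25 in the WT lysates and -0.68 and -0.85 in the cKO lysates. The difference was -0.62, with a pooled SD of 0.13 between lysates of a genotype, and no test was run on 2 lysates against 2. Against single dorsal genes it was -0.58 for Nqo1, -0.55 for Acsm4, -0.55 for Acss2 and -0.80 for Msx1. All 8 libraries are polysome pools of whole tissue, with no total RNA among them. Fewer cells of a type, less RNA per cell and a smaller share of that RNA on polysomes thus cannot be told apart.

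Marker levels of other cells stood beside this difference. The 9 mature neuron markers summed to 10552 and 12968 scaled TPM in WT early and 11577 and 11727 in cKO early, which overlap, and to 8152 and 8594 in WT late and 7158 and 8159 in cKO late. These sums are mostly Omp, Stoml3 and Gng13, with means of 3618, 2694 and 1149 deposited TPM. On lysate means 1 of these 9 markers had a value above 0, and the median was -0.10 (0 called by limma or voom, 0 at an unadjusted p under 0.05). The 6 immature neuron markers summed to 1954 to 1985 in WT and 1888 to 1948 in cKO early polysomes, and to 1568 to 1809 in WT and 1443 to 1527 in cKO late polysomes, without overlap in either. Their median on lysate means was -0.19, with 2 of 6 above 0, 0 called by limma or voom and 0 at an unadjusted p under 0.05. The 4 immune markers were higher in cKO, at 224 to 235 against 159 to 180 in early and 198 to 204 against 153 to 159 in late polysomes, and the median of the 4 on lysate means was 0.20. Lyz2 differed most, at 0.62, against 0.28 for C1qa, 0.13 for Ptprc and 0.11 for Cd68. Of the 4, 0 were called by limma and 1 by voom on lysate means. An unadjusted p under 0.05 was found for 2 by limma, against 11.3% of all genes. The 6 sustentacular markers stood at 6225 to 6914 in cKO and 6170 to 6315 in WT early polysomes, which overlap, and at 9169 to 10145 against 8102 to 8782 in late ones, with a median of 0.03 on lysate means. In late polysomes Cbr2, the most abundant of them, differed by 0.35 and Cyp1a2 by 0.34. Cyp2g1 stood at 0.16, Muc2 at 0.11, Sec14l3 at 0.01 and Ermn at -0.09. Bowman gland markers had a median of 0.21 on lysate means, with 2 of 4 at an unadjusted limma p under 0.05. Ensheathing glia markers had a median of -0.15, with 1 of 5 under it. In both of these lists 0 were called by limma or voom. The part of all these markers in the level of Ncam2 was not tested. No marker of these lists was at 0 in all libraries.

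**Figure D4:**
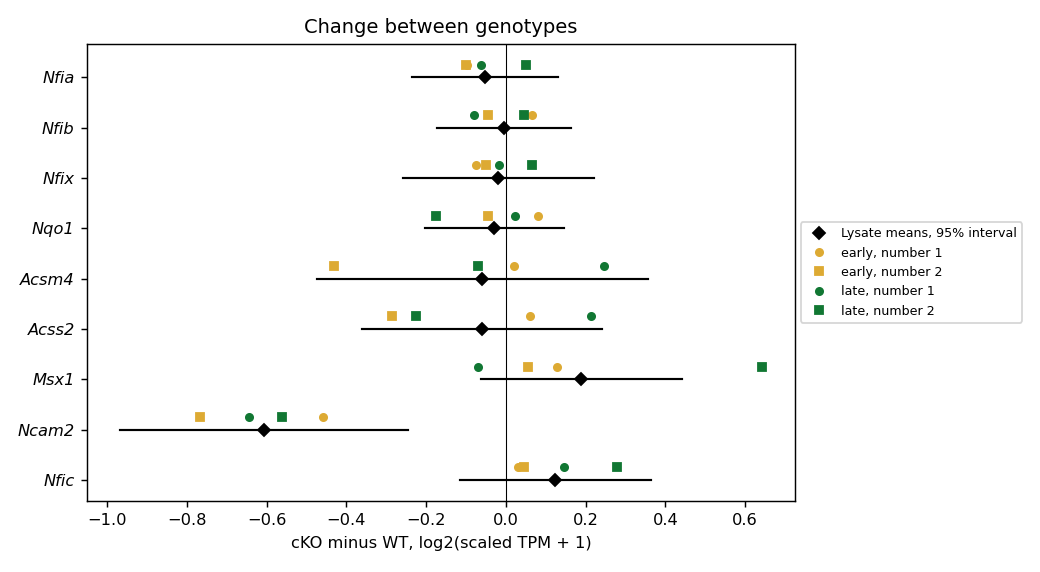
Change from WT to cKO in log2(scaled TPM + 1) for the 8 genes and Nfic. Points set libraries of the same fraction and replicate number side by side, which is a display and no pairing, and diamonds are the lysate means with 95% intervals. The interval of Ncam2 (-0.97 to -0.25) is the only one of the 9 that leaves out 0, before adjustment over all genes.

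Genes related to the 8 were described from lists, with all list counts by limma, to be read against the 34.3% higher and 34.6% lower of all genes in late polysomes. None of these lists, axon guidance, sterol and receptor genes included, was matched for coding length. Class medians of the fraction change ran from -1.12 to 0.50 with that length, and its part in the list counts was not tested. Of 10 paralogs of the dorsal and ventral genes 7 could be tested, and 5 were higher and 0 lower in late polysomes, with a median change of 0.73. Acsm3, a relative of Acsm4, changed by 0.93 (adjusted p = 0.000265), Acss1, the mitochondrial relative of Acss2, by 0.85 (adjusted p = 6.57e-05) and Ncam1, the relative of Ncam2, by 0.75. Msx2, a relative of Msx1, changed by 0.07 (limma adjusted p = 0.677) and did not share the fall of Msx1 (-0.86). Acsm2, Acsm5 and Msx3 did not pass the filter on low values. On lysate means Ncam1 differed between genotypes by -0.23 (adjusted p = 0.508), against -0.61 for Ncam2.

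Axon guidance genes, which position olfactory axons along the dorsal-ventral axis of the bulb, were mostly higher in late polysomes. Of 10 tested, 9 were higher and 0 lower, against 34.3% and 34.6% of all genes, with a median change of 0.74, led by the semaphorin receptors Plxna4 (1.03) and Plxna3 (0.98). Nrp2, a semaphorin receptor of ventral axons, was 0.52 higher in late polysomes (adjusted p = 0.000479), and Robo2, a Slit receptor of dorsal axons, 0.74 higher. Between genotypes on lysate means 0 of the 10 were called by limma or voom, and Nrp2 at -0.19 and Plxna4 at -0.27, 2 of the 10, had an unadjusted p under 0.05, against 11.3% of all genes. Robo2, of dorsal axons, differed by -0.19 as well, at an unadjusted limma p of 0.073.

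The retinoic acid pathway, a candidate source of positional signals in the epithelium, had 7 of 18 genes higher and 7 lower in late polysomes, with a median of -0.20. These counts are near the 34.3% and 34.6% of all genes. The aldehyde dehydrogenases Aldh1a7 (1.47) and Aldh1a1 (1.34) led the higher genes, and the binding protein Crabp1 (-1.48) was among the lower ones. Between genotypes 0 were called by limma or voom on lysate means, and an unadjusted p under 0.05 was found for 2, against 11.3% of all genes.

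The dorsal genes Nqo1, Acss2 and Msx1 were set beside genes of their pathways, where 34.3% higher and 34.6% lower is again the share over all genes. Of 11 antioxidant response genes, the company of Nqo1, 7 were higher and 2 lower in late polysomes (median 0.46), with the glutathione transferases Gsta4 at 1.40 and Gstm1 at 1.03, and Srxn1 at -0.92 and Gclm at -0.31. Of 14 acetyl-CoA and sterol genes, set beside Acss2, 12 were higher and 1 lower (median 0.74). The sterol regulators Srebf1 and Srebf2 stood at 1.21 and 1.05, and Insig1, which retains them in the endoplasmic reticulum, was the lower one at -1.01.

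Of 14 genes of bone morphogenetic protein signalling, which induces Msx1 in several tissues, 2 were higher and 6 lower (median -0.15), against 34.3% and 34.6% of all genes. Dlx5 stood at 0.43 and the receptor Bmpr1b at 0.43, while Id2, a target of the pathway, stood at -1.29 and the receptor Bmpr1a at -0.86. In these 3 pathways 0 genes were called between genotypes on lysate means by limma or voom. The counts at an unadjusted p under 0.05 were 0 of the antioxidant, 5 of the acetyl-CoA and sterol, and 2 of the bone morphogenetic protein genes, against 11.3% of all genes.

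Receptor genes, whose choice follows the zones, were counted in the same way. Of 100 class I odorant receptors tested, expressed dorsally, 9 were higher and 27 lower in late polysomes, and of 724 other odorant receptors 27 were higher and 171 lower. Of 11 trace amine-associated receptors, also dorsal, 3 were higher and 2 lower, beside 34.3% and 34.6% of all genes. Between genotypes on lysate means 0 of each were called by limma. At an unadjusted p under 0.05 the counts were 9 of the 100, 140 of the 724 and 3 of the 11, against 11.3% of all genes, and voom called 1, 15 and 0, against 58 of 16085 genes.

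The 8 genes fell into patterns over the 8 libraries, given as Pearson's r of log2 values, a description that largely follows the fraction the libraries share. Nqo1 and Acss2 (0.98), Acsm4 and Acss2 (0.98) and Nqo1 and Nfib (0.96) went together, and Msx1 opposed Nqo1 (-0.95). Nfia and Nfix went together at 0.85, while Nfia and Nfib stood at 0.01. Ncam2 reached at most 0.71 in size with any of the others, with Acsm4.

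Among 11039 genes with a mean of at least 10 TPM, the 2 most similar profiles were taken for each of the 8. Nfia was most like Lats1 (0.971) and Rbm33 (0.937), Nfix like Hipk2 (0.964) and Ube3b (0.930), and Nfib like Ogfod1 (0.997) and Cited2 (0.997). Nqo1 was most like Gadl1 (0.999) and Syt11 (0.998), Acsm4 like Mcm2 (0.998) and Cyp2a5 (0.996), and Acss2 like Rsph4a (0.999) and Tmem135 (0.997). Msx1 was most like Use1 (0.989) and Fam89b (0.988), and Ncam2 like Fnip1 (0.992) and 2210408I21Rik (0.980).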

How the data were processed

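The authors deposited 1 table of TPM for 21765 gene symbols in 8 libraries, each column summing to 1000000. FastQC, cutadapt, STAR, DESeq2 and the build mm10 are named in the submitters' processing notes; how reads were counted, and whether by strand, is not given in the sources used here. Groups followed the sample titles. The series text also describes sorted cells and reporter transgenes that these samples' labels do not list, and the Cre line is not reported here.

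TPM were divided by median-ratio factors and tested as log2(scaled TPM + 1) with limma 3.58.1 (R 4.3.3): 4 groups in 1 fit, empirical Bayes with a mean-variance trend, and Benjamini-Hochberg adjustment over the 16097 genes with a mean of at least 1 TPM. Genotypes were also compared on 4 lysate means. Early and late libraries pair by lysate name (correlation of deviations 0.086 in WT and 0.050 in cKO), and blocking on the lysate changed no call among the 8 genes. Whole reads came out within 0.001 for 100% of 19783 genes and served voom. Coding lengths came from GENCODE. On simulated data with 200 genes changed 3-fold, limma recovered 200 on lysate means and 196 in early polysomes of 16030 genes, with 25 and 20 false calls. False calls were thus a larger part of the calls than the threshold of 0.05 aims at. The simulated libraries were independent, had a fixed spread and changed only well-covered genes. The counts therefore do not give the power for smaller changes in these data.

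The 8 genes and all lists were chosen with earlier results of these data known. Named genes were Mex3a, the 8 genes, Nfic, up to 4 called genes of each list with the largest changes (mean of at least 5 TPM) and 2 similar profiles per gene. Robo2, Msx2, the single cell markers and the genotype values of Ncam1, Nrp2 and Plxna4 were added after their values were seen. A gene that the rule named is not reported here.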

Additional observations from a re-analysis of the deposited data

How the results depend on the processing

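The 6 fraction calls averaged over genotypes held under all 17 other settings each, with Ncam2 between 0.38 and 0.64 on the log2 scale. Scaling moved the median of all genes from 0.10 to -0.01 in cKO. Without scaling the late-minus-early values of Nfia, Nfix and Nfic turned to 0.089, 0.051 and 0.082, and quantile normalization gave Nfix 0.048, Nfic 0.033 and the Ncam2 interaction -0.034. Leaving out 1 library gave -0.078 to 0.027 for Nfia, -0.13 to 0.00081 for Nfix, -0.11 to 0.045 for Nfic and -0.26 to 0.28 for that interaction. Leaving out 1 lysate gave genotype changes of -0.11 to 0.0038 for Nfia, -0.043 to 0.035 for Nfib, -0.12 to 0.085 for Nfix, -0.072 to 0.014 for Nqo1, -0.32 to 0.20 for Acsm4 and -0.24 to 0.12 for Acss2. The cause of these shifts was not tested.

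With the replicate block on the number, the lysate means called 1 of the 8 genes, Ncam2 (adjusted p = 0.0291), and 82 genes in all, against 1 without it. Over its 13 settings Ncam2 lay between -0.79 and -0.42, with adjusted p from 0.0291 to 0.939. Same-numbered WT and cKO libraries deviated together (0.33 early, 0.14 late), but no label says that a number marks a shared day or batch. Voom, run with median-ratio scaling of the reads in place of TMM, a choice made after seeing the data, called 58 genes on lysate means and 0 of the 8. By inferred reads the NFI shares were 14.5% Nfia, 35.03% Nfib, 18.4% Nfic and 32.05% Nfix, since reads count length. Against Msx1 alone the Ncam2 ratio differed by -0.80. Mex3a, at -2.67 on lysate means (adjusted p = 0.0227), missed the threshold without the filter (adjusted p = 0.165) or without the trend (0.066). With 2 lysates per genotype the intervals stay wide, and Msx1, at 121 to 308 reads, has the fewest reads of the 8. Its SE on lysate means was 0.10, and those of Acsm4 (0.17), Ncam2 (0.15) and Acss2 (0.12) were larger. The comparison of NFI proteins was not run.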
